A study of Rattus norvegicus with 64 samples.

Results

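Rat urinary bladders that had been reconstructed with bladder acellular matrix (BAM) and no added cells were compared between 30 and 90 days after surgery. BAM is the bladder wall left after its cells have been removed. The comparison took 16 of the 64 arrays of the series, 8 labelled BAM at 30 days and 8 labelled BAM at 90 days, by graft and day alone and not by any measured value. Both groups were syngeneic male Wistar rats that had undergone hemicystectomy, the removal of a part of the bladder, and augmentation with about 1 cm2 of unseeded BAM. The age of the recipients is not given in the sources used here. The labels call the 8 arrays of a group biological replicates. Each array held total RNA of the reconstructed wall, so every value mixes the epithelium, muscle, matrix cells, leukocytes, vessels and nerves that had grown into the graft by then. In such whole tissue, fewer cells of a type and less RNA per cell cannot be told apart. None of the 16 arrays held an unoperated bladder, and the 2 days came from different animals. Grafts seeded with adipose derived stem cells (ADSCs) at the same days, 16 further arrays, served to ask whether a change over the days differed between BAM and BAM with ADSCs.

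A decellularised graft heals in overlapping stages. Leukocytes and fibroblasts fill it first, with proliferation, collagen deposition and cross-linking. Urothelium, the stratified lining whose umbrella cells carry uroplakin plaques, spreads from the edge of the native bladder. Smooth muscle, vessels and nerves follow, while inflammation and proliferation decline and the matrix is remodelled.

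Expression is given as a log2 level, the logarithm of the spot signal from which the array's 75th percentile was subtracted, so that 0 is the level of a gene brighter than most. A difference is the 90-day mean minus the 30-day mean on that scale, with its standard error (SE). All directions are therefore relative to the array as a whole. The E1A spike-in RNAs, which were added in fixed amounts, lay on average 1.05 higher on this scale at 90 days for the 9 of 10 probes that were not saturated, with a range from 0.84 to 1.28. Scaling to the 8 probes that were unsaturated on all 64 arrays would move the median of all tested probes by about -1.02. A rise or fall here is therefore a change against the other genes and not in amount.

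The 2 days were not scanned alike. The median background of an array ran from 49.0 to 51.0 at 30 days and from 321 to 366 at 90 days, and 73.3% to 77.8% of spots were well above background at 30 days against 35.5% to 58.5% at 90 days. In an exact permutation test (two-sided, 8 arrays a group) both differences had the smallest p such a test can give, 0.0001554. Each group lay on a slide of its own and the 2 days were scanned on different days, so day, slide and scan cannot be told apart. Replicate 8 at 90 days was a weak array, with a 75th percentile of 9.86 on the log2 scale against 10.88 to 11.62 for the other 7. Replicate 5 at 90 days stood apart in its tissue genes. Its median level of the urothelial keratins was -0.04, below the other 15 arrays, which ran from 1.15 to 4.42. Its macrophage genes were lowest of all arrays, with a median of 0.37, and its striated muscle and Schwann cell genes were highest, with medians of 2.30 and 2.39. Calls of named genes that were lost without replicate 5, replicate 8 or both are noted beside the result.

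Of 30367 gene probes, 8780 (28.9%) were well above background on all 16 arrays and were tested. They covered 5358 named genes. This filter was set almost wholly by the 90-day arrays, since 20032 probes were well above background on all 8 arrays at 30 days and 8782 at 90 days. Among probes with a 30-day level at or above 0, 97.0% were tested. Below 0, 18.0% were tested, so a gene that was dim at 30 days entered mainly through a higher level at 90 days. Rises from a low level were selected in this way, so for the lists with rises the count among genes that started at or above 0 is given too.

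Between 30 and 90 days, 2433 of the 8780 probes changed (27.7%), at an adjusted p below 0.01 in limma and a change of more than 1.5-fold. Higher at 90 days were 1237 (14.1%) and lower 1196 (13.6%). A fall can be a scanner limit where the 90-day spots were saturated, and this was so for 477 of the lower probes, which were set aside. Among the named genes, taken by their brightest probe, 599 (11.2%) rose, 526 (9.82%) fell and 154 falls were set aside. In 392 named genes (7.32%) all 8 arrays at 90 days lay above all 8 at 30 days, and in 465 (8.68%) they lay below. Among the 3798 named genes with a 30-day level at or above 0, 257 rose (6.77%) and 490 fell (12.9%). The counts of the lists below are to be read beside these shares. For list members that started at or above 0, the shares of the 3798 genes apply. Arrays at 90 days varied more among themselves, with a median SD of 0.300 per probe against 0.156 at 30 days, and 87.5% of probes had the larger SD at 90 days.

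**Figure D1:**
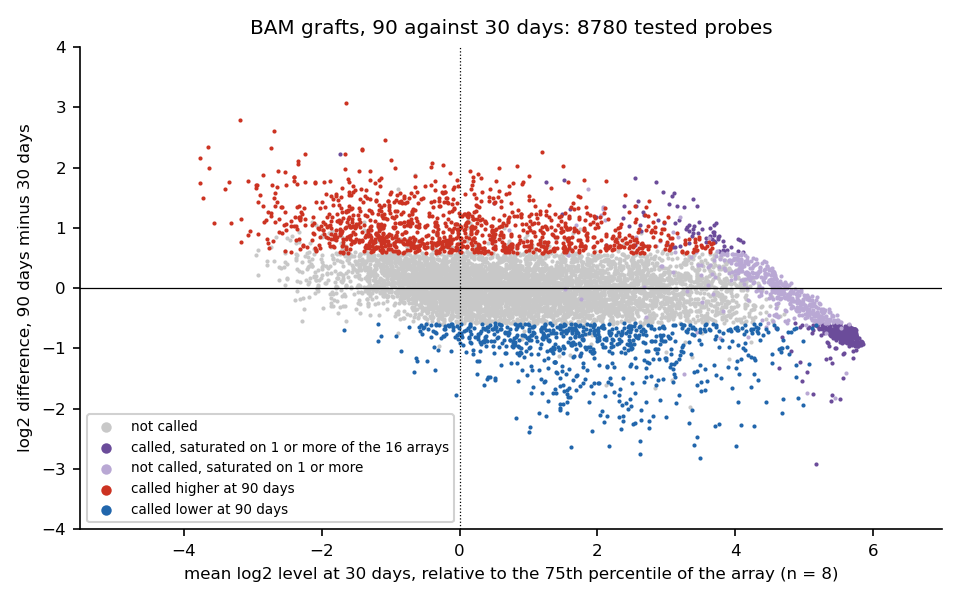
Difference between 90 and 30 days (log2) against the 30-day level (log2, array 75th percentile = 0) for the 8780 tested probes, 8 arrays per day. The 878 dimmest probes have a median difference of 0.55 and the 878 brightest -0.68, and 476 of the 519 lower probes among the brightest had saturated 90-day spots.

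The largest falls were led by immune genes, whose cell source was not tested. Il1rn encodes the receptor antagonist that blocks interleukin 1. Its level ran from 4.89 to 5.45 at 30 days with a median of 5.24, and from -3.28 to 4.07 at 90 days with a median of 2.91. All 8 arrays at 90 days lay below all 8 at 30 days, replicate 5 being far below the other 7, and the difference was -2.93 ± 0.49 (SE, adjusted p = 1.1e-06), or 7.61-fold. Without replicate 5 the fall was 4.40-fold. Il1rn was saturated on 3 arrays at 30 days, which can only make this fall too small. Cxcl13, the chemokine that draws B cells into lymphoid tissue, ran from 2.79 to 4.44 at 30 days and from -2.22 to 2.21 at 90 days, a difference of -2.82 ± 0.66. Ncf4, a cytosolic subunit of the phagocyte NADPH oxidase, varied little at 30 days, from 2.36 to 2.85, and ran from -1.90 to 1.11 at 90 days, a fall of 5.78-fold. Clec12a, an inhibitory lectin receptor of myeloid cells, fell 5.09-fold, and Hk3, the hexokinase of myeloid cells, fell 6.22-fold. For each of these genes the 2 days did not overlap.

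The other large falls were of a different kind. Rrm2 supplies deoxynucleotides for DNA synthesis, and its level ran from 1.60 to 3.15 at 30 days and from -2.09 to 1.20 at 90 days, a fall of 6.15-fold. Slc16a3, the lactate exporter MCT4, ran from 2.76 to 4.10 at 30 days and from 0.01 to 2.16 at 90 days, a fall of 5.53-fold (adjusted p = 6.8e-11). Slc28a2, a concentrative nucleoside transporter, fell 6.76-fold. Rassf4, a Ras association domain protein, fell 6.17-fold.

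Among named genes the largest rises were smaller than the largest falls and less alike in what the genes do. Over all called probes, named or not, the largest rise was 3.07 and the largest fall -2.93. Rnf126 encodes a ubiquitin ligase. Its level lay between -1.28 and -0.77 at 30 days with a median of -1.15, and between 0.94 and 1.83 at 90 days with a median of 1.30. The days were clearly apart, with a difference of 2.45 ± 0.16 (5.46-fold, adjusted p = 3.0e-19). Rasd2, a small GTPase, rose 5.08-fold from a mean of -3.65, the alpha tubulin Tuba3b rose 4.98-fold from -2.74, Thsd7a, a membrane protein with thrombospondin repeats, rose 4.65-fold from -2.24, and the esterase Bche rose 4.45-fold from -3.76. In each of these 4 all 8 arrays at 90 days lay above those at 30 days. The proton-gated channel subunit Asic4 rose 4.29-fold, and the keratin Krt80, of differentiating epithelia, rose 4.17-fold, both from -2.34. These 6 started far below 0, in the range where the filter selects rises, and Rnf126 started below 0 as well. Of probes with a 30-day level from -2 to -1, 23.9% were tested, and 266 of these rose and 4 fell. Detoxifying enzymes of epithelia were also among the 10 largest rises. Aldh3a1 oxidises aldehydes, and its level ran from -1.11 to 1.28 at 30 days and from 1.01 to 2.49 at 90 days, a rise of 4.10-fold. Cyp1a1, the target gene of the aryl hydrocarbon receptor, rose 3.98-fold at an adjusted p of 0.0074. This call was lost without replicate 8 and under cyclic loess. Ntsr2, a neurotensin receptor, had the most uneven rise. It ran from -1.85 to 4.74 at 90 days, with 3 of 8 arrays above all those at 30 days, and without replicate 5 its difference fell from 2.22 to 1.61 and was no longer called.

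**Figure D2:**
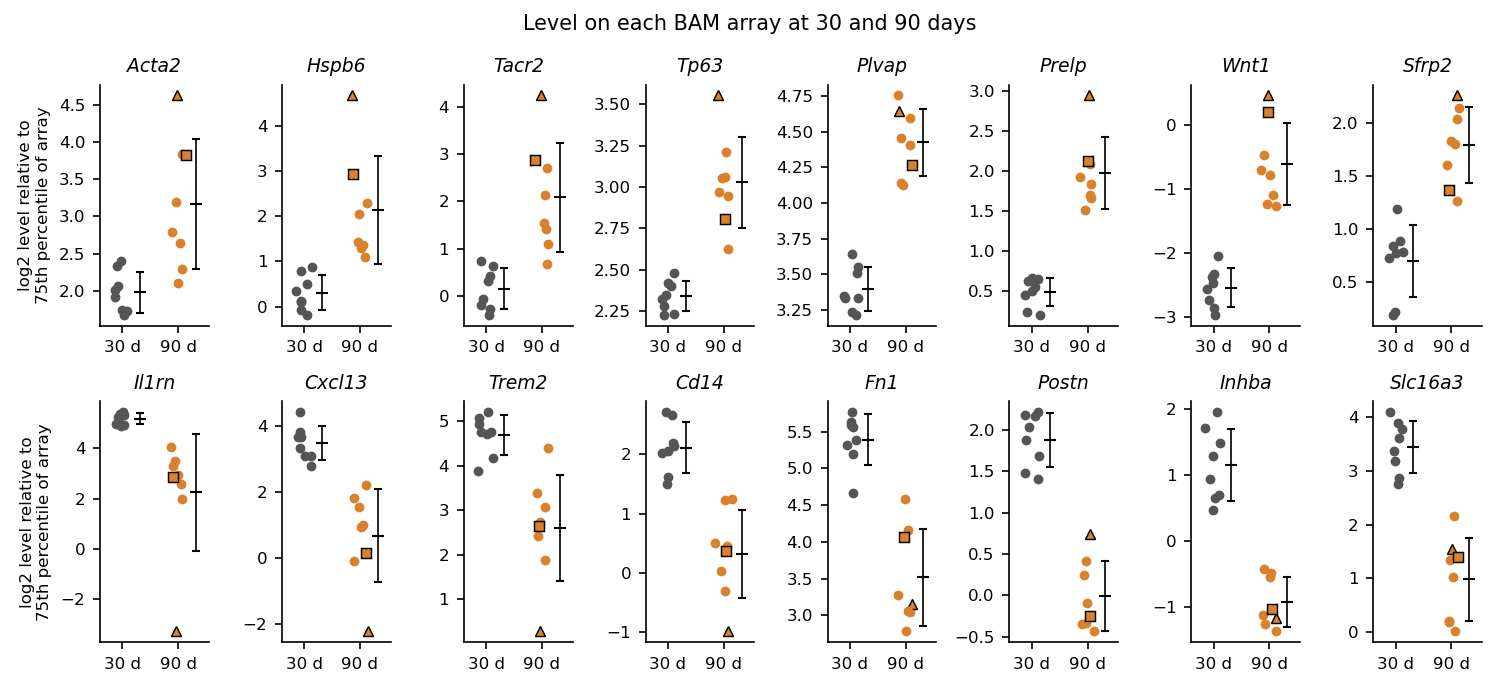
Log2 level (75th percentile of the array = 0) of 16 genes on each array, 8 per day, with the mean and SD beside the points. The triangle is replicate 5 and the square replicate 8 at 90 days. Hspb6 and Prelp lie higher, and Il1rn, Fn1 and Slc16a3 lower, on every 90-day array than on any 30-day array.

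None of the defining genes of the lining was called, and the brightest of them were close to saturation. The uroplakins Upk1a and Upk1b, which form the plaques of umbrella cells, were already among the brightest genes at 30 days, with means of 4.20 ± 0.49 and 4.62 ± 0.43 (SD, n = 8), and stood at 4.44 ± 0.89 and 4.38 ± 0.79 at 90 days. Their differences of 0.24 and -0.24 were within the spread of the arrays (adjusted p = 0.66 and 0.56). They were saturated on 4 and 5 of the 8 arrays at 90 days and Upk3a on 7, so a rise in these 3 could be hidden. Upk2, a further plaque protein, started lower, at a mean of 1.86, and was saturated on 1 array at 90 days. It had a difference of 1.64 ± 0.58 and missed the threshold at an adjusted p of 0.0126. Without replicate 5 it differed by 2.04 and was called higher (adjusted p = 0.0019). Upk2 was also called higher under quantile normalization. None of the 4 uroplakin and umbrella cell genes tested and none of the 7 urothelial keratins was called, with Krt5 of the basal layer at 0.50 ± 0.56.

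Some regulators and junction genes of the epithelium rose. Of 5 epithelial transcription factors tested 2 rose and none fell, and 1 of the 3 that started at or above 0. Tp63, the transcription factor that maintains basal cells, was very even, from 2.23 to 2.48 at 30 days and from 2.62 to 3.55 at 90 days. No array of one day reached the other, and the rise was 1.61-fold, which fell just short of 1.5-fold under cyclic loess and with normexp background. Gata3, a transcription factor of urothelial identity, rose 2.12-fold, and 7 of 8 arrays at 90 days exceeded all at 30 days. The exception was replicate 5, at -2.54. Under quantile normalization and cyclic loess Gata3 was not called. Elf3, Pparg and Esrp1, further epithelial regulators, differed by -0.13, 0.34 and 0.32. Of 9 junction genes tested 4 rose and none fell, but only 1 of the 6 that started at or above 0 rose, Jup. Cldn7, a claudin of tight junctions, ran from -1.75 to -0.15 at 30 days, and at 90 days replicate 5 stood at -3.03 with the other 7 from 0.23 to 1.78. The rise was 2.68-fold. Jup, the plakoglobin of desmosomes, rose 2.10-fold, Ocln, occludin of tight junctions, 1.63-fold and Tjp1, the scaffold ZO-1, 1.52-fold. The Tjp1 call was lost without replicate 5 and under quantile normalization, and the Ocln call under cyclic loess. Cdh1, the E-cadherin of adherens junctions, and Epcam, an epithelial adhesion molecule, differed by 0.19 and 0.32 and were not called.

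Contractile genes of smooth muscle were higher at 90 days. Of 18 tested, 12 rose and none fell, with a median difference of 0.86. Of all named genes 11.2% rose, and the median difference over them was -0.01. All 12 rises were among the 16 that started at or above 0, where 6.77% of named genes rose. Hspb6, a small heat shock protein that relaxes smooth muscle, ran from -0.18 to 0.88 at 30 days and from 1.10 to 4.66 at 90 days. All 8 arrays at 90 days lay above those at 30 days, and the rise was 3.55-fold. Acta2, the smooth muscle alpha actin, ran from 1.67 to 2.40 and then from 2.10 to 4.63, a rise of 2.27-fold in which 6 of 8 arrays exceeded all at 30 days. Smtn, which binds the actin filaments of contractile cells, rose 2.18-fold and Cnn1, calponin, 2.64-fold. Csrp1 and Flna, an actin-bundling and an actin cross-linking protein, differed by 1.08 and 1.03, Myl9, the regulatory myosin light chain, by 1.05, and Des, the intermediate filament desmin, by 0.98. Myh11, the smooth muscle myosin heavy chain, Actg2 and Tpm2 were saturated on all 8 arrays at 90 days, so a rise in them could not show. Mylk, Tagln and Myl9 were saturated on 7 of 8, so that their differences are lower bounds.

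How many contractile genes were called depended on the 2 arrays that stood apart. Without replicate 5, 8 of the 18 rose, without replicate 8, 6, and without both, 6. The list's median difference was 0.82, 0.83 and 0.59 in these fits. The same 6 genes, Acta2, Smtn, Myl9, Hspb6, Flna and Csrp1, were called in each of these fits, and Cnn1 was lost without either array.

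Of 9 receptors and channels of the bladder muscle tested, 4 rose and none fell, but 7 of the 9 started below 0, where the filter selects rises, and of the other 2 only Tacr2 rose. Tacr2, the neurokinin A receptor that contracts bladder muscle, ran from -0.41 to 0.74 at 30 days and from 0.68 to 4.24 at 90 days, a rise of 3.84-fold. P2rx1, the ATP-gated channel of purinergic contraction, rose 3.54-fold, Chrm3, the muscarinic receptor of parasympathetic contraction, 2.51-fold, and Pde5a, the phosphodiesterase that ends cyclic GMP signals, 2.32-fold. On Pde5a all 8 arrays at 90 days lay above those at 30 days, from -1.01 to 1.34 against -1.99 to -1.25. Without replicates 5 and 8, 1 of the 4 was called, Pde5a. When replicate 8 at 90 days was left out of both the fit and the filter, 15 could be tested, of which 4 rose and 1 fell, the potassium channel Kcnma1, by 1.11 on the log2 scale. Of 5 striated muscle genes, 3 rose, none of them among the 2 that started at or above 0. Ckm, the muscle creatine kinase, rose 3.08-fold, Tnnc1, the troponin C of slow and cardiac muscle, 2.53-fold, and the skeletal alpha actin Acta1 2.20-fold, and none was called without both arrays. Acta1 was also lost under quantile normalization and cyclic loess, and Tnnc1 under cyclic loess.

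The matrix changed in its cross-linking enzymes and its injury-related proteins more than could be read for its main collagens. Col1a1, Col1a2 and Col3a1, the chains of the abundant fibrillar collagens, had mean levels of 5.55, 5.61 and 5.67 at 30 days and were saturated on all 8 of these arrays and on at least 7 of 8 at 90 days, so that neither direction nor size can be given. Col5a3, a chain of the collagen that starts fibrils, was within range. It ran from 1.76 to 3.02 at 30 days and from -0.38 to 0.74 at 90 days, a fall of 4.42-fold with no overlap (adjusted p = 3.5e-11). Col5a1 differed by -0.58 ± 0.17 and stopped just short of the 1.5-fold threshold. Without replicate 5 it was called lower. Of 6 basement membrane genes tested 1 was called, the laminin chain Lamb2, which rose 1.99-fold. Lamb2 was among the 4 that started at or above 0. Lama5, a further laminin chain, differed by 0.54 and Col4a1 by -0.05.

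Of 14 elastic fibre and cross-linking genes 5 fell and 2 rose, and of the 11 that started at or above 0, 4 fell and none rose. Of all named genes that started at or above 0, 12.9% fell. Plod2, the lysyl hydroxylase that sets up stable collagen cross-links, ran from 0.65 to 2.02 and then from -1.37 to 0.86, a fall of 3.33-fold. P4ha1, the prolyl hydroxylase subunit that stabilises the collagen helix, fell 2.58-fold. The lysyl oxidases Loxl2 and Loxl1 fell by 1.01 and 0.99 on the log2 scale, and Fbn1, the fibrillin of microfibrils, by 0.76. Ltbp4, which binds latent TGF-beta and is needed for elastic fibre assembly, rose 2.37-fold. Fbln1, fibulin 1, rose by 0.63, a call lost without replicate 5, under quantile normalization and under cyclic loess. The elastin gene Eln itself differed by -0.52 ± 0.29 and was not called.

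Of 10 genes of matricellular proteins, which regulate cells rather than build fibres, 2 fell, 1 fall was set aside, 1 rose and 6 were not called. Of the 8 that started at or above 0, 2 fell and 1 rose. Fn1, fibronectin of provisional matrix, ran from 4.67 to 5.77 at 30 days and from 2.78 to 4.58 at 90 days, a fall of 3.66-fold. Postn, periostin of injured and remodelling tissue, fell 3.70-fold, from a range of 1.41 to 2.22 to a range of -0.43 to 0.74. In both genes every array at 90 days was below every array at 30 days. Sparcl1, a protein of mature stroma and vessels, rose 2.31-fold. Among the small leucine-rich proteoglycans, which bind collagen fibrils, Prelp ran from 0.20 to 0.65 at 30 days and from 1.51 to 2.94 at 90 days, a rise of 2.81-fold. Ogn rose 2.37-fold with no overlap, and Dcn, decorin, differed by 0.23 and was not called. Under quantile normalization Dcn differed by 0.69 and was called higher. Timp1, the injury-induced inhibitor of metalloproteinases, fell 2.68-fold, from between 3.60 and 4.91 to between 2.39 and 3.49, while the gelatinase Mmp2 differed by 0.05 ± 0.16.

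Macrophage genes were lower at 90 days. Of 15 tested 8 fell, 4 more falls were set aside and none rose, with a median difference of -1.39, where 9.82% of all named genes fell. All 8 falls were among the 13 that started at or above 0, where 12.9% of named genes fell. Trem2, a lipid receptor of tissue macrophages, had a mean of 4.69 ± 0.45 (SD, n = 8) at 30 days and 2.60 ± 1.20 at 90 days, a fall of 4.23-fold. Cd68, the lysosomal macrophage marker, fell 3.85-fold, and its 90-day values ran from 2.87 to 4.43 in 7 arrays with replicate 5 at 0.09. Cd14, the endotoxin co-receptor, went from a median of 2.10 to a median of 0.41, with no overlap of the days, a fall of 3.47-fold. The Fc receptor Fcgr1a fell 2.82-fold, Csf1r, the receptor for the macrophage growth factor, 2.15-fold, and Folr2, the folate receptor of resident macrophages, by 1.44 on the log2 scale. Cd163 and Lyve1, markers of resident macrophages, differed by -0.31 and -0.23 and were not called. Without replicate 5, without replicate 8 and without both, the same 6 of the 15 fell, those just given as called, with medians of -1.04, -1.32 and -1.10. Ncf1, an oxidase subunit of phagocytes, fell 3.44-fold. It was 1 of only 2 neutrophil genes that could be tested.

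Several transcripts of antigen presentation were lower too. Of 8 MHC class II genes 5 fell, 1 fall was set aside and none rose, where 9.82% of all named genes fell. All 8 started at or above 0, where 12.9% of named genes fell. Ctss, the protease that trims the invariant chain, ran from 3.90 to 4.55 and then from 0.71 to 3.66, a fall of 3.11-fold. RT1-DMa and RT1-DMb, the chains of the peptide exchanger, fell 2.90-fold and 2.80-fold, and RT1-Bb, a class II beta chain, 2.94-fold. In the first 3 of these genes the days did not overlap. RT1-Bb was not called without replicates 5 and 8. RT1-Da and RT1-Db1, a further class II pair, differed by -0.74 and -0.89 and were not called (adjusted p = 0.056 and 0.058).

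Soluble mediators did not all move together. Of 11 chemokines tested 3 fell and 1 rose. Of the 10 that started at or above 0, 3 fell and none rose, where 12.9% of named genes fell. Beside Cxcl13, Cxcl16, a macrophage chemokine, fell 2.09-fold and Ccl6, a monocyte attractant, 2.05-fold. The Ccl6 call was lost without replicate 5, without replicate 8 and without both. Ccl27, a chemokine of epithelia, rose 1.81-fold from a mean of -2.02, a call lost without replicates 5 and 8 and under cyclic loess. Ccl21 and Ccl11, which attract lymphocytes and eosinophils, differed by 0.84 and 0.74 without being called. Csf1, the macrophage growth factor, ran from 0.61 to 2.56 and then from -0.35 to 1.21, a fall of 2.74-fold. Of 11 complement genes 3 fell and 2 falls were set aside. C5ar1, the receptor for the anaphylatoxin C5a on myeloid cells, fell 3.65-fold, while the initiating proteases C1r and C1s differed by 0.27 and -0.09. Of 12 interferon-stimulated genes 2 fell, the immunoproteasome subunits Psmb8 and Psmb9, by 2.11-fold and 1.93-fold. Neither was called without replicates 5 and 8. Mx1, the antiviral GTPase, showed how uneven the interferon response was within a day. It stood between 3.55 and 5.55 in replicates 3, 4 and 5 at 30 days and at 4.77 and 3.89 in replicates 4 and 6 at 90 days, and between -0.08 and 1.66 on the other 11 arrays.

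**Figure D3:**
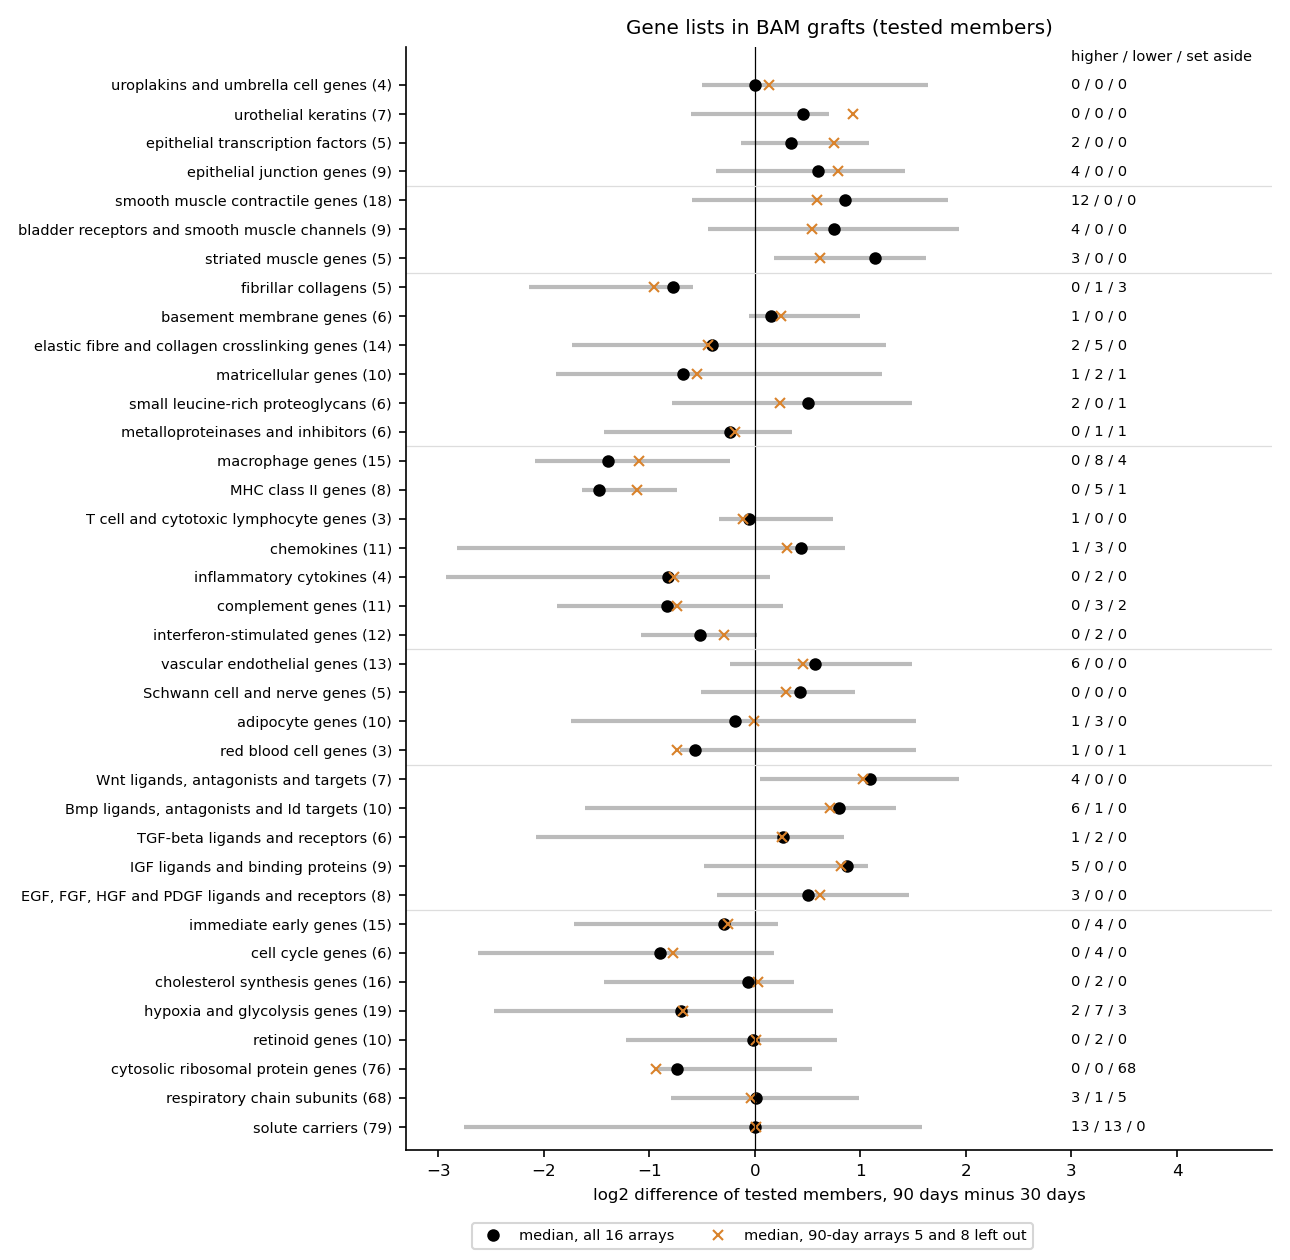
Median log2 difference between 90 and 30 days of the tested genes of each list (black points; their number in brackets), its value without replicates 5 and 8 at 90 days (crosses), and the range from the lowest to the highest gene (lines). The columns at the right count genes that rose, fell or were set aside for saturation. The smooth muscle median is 0.86 and the macrophage median -1.39.

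Vessel genes rose in part. Of 13 endothelial genes tested 6 rose and none fell, and all but 1 of the 6 started below 0, where the filter selects rises. Plvap, which forms the diaphragms of fenestrated capillaries, was the exception. It ran from 3.21 to 3.64 at 30 days and from 4.13 to 4.75 at 90 days, a rise of 2.04-fold with no overlap (adjusted p = 1.5e-09). Flt4, the receptor for lymphatic growth factors, rose 2.80-fold from a mean of -2.69 ± 0.11 (SD, n = 8), Ramp2, the adrenomedullin co-receptor, 1.90-fold, and Emcn, a sialomucin of veins and capillaries, 1.86-fold. Cldn5 and Esam of endothelial junctions rose by 0.68 and 0.79. The Cldn5 call was lost under cyclic loess. Pecam1, the general marker of endothelium, differed by 0.20 ± 0.17 and Cdh5, VE-cadherin, by 0.57 ± 0.24, and neither was called. Without replicates 5 and 8, 5 of the 6 rises were called, and Esam was lost. Of 5 Schwann cell and nerve genes none was called, with S100b at 0.95 and Mbp, myelin basic protein, at 0.83.

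Other tissues that can lie on or near the bladder wall were read from their markers. Of 10 adipocyte genes 3 fell and 1 rose, and of the 8 that started at or above 0, 3 fell and none rose. Lpl, lipoprotein lipase, fell 3.34-fold and Fabp4, a fatty acid carrier, 2.44-fold, both of which macrophages can express too, and Cidea fell 2.11-fold. Slc2a4, the insulin-regulated glucose transporter of muscle and fat, rose 2.88-fold from below 0, where the filter selects rises. Msln, of the mesothelium that covers the bladder dome, fell 2.87-fold. No gene of the male accessory glands was well above background on all 16 arrays. Ahsp, the chaperone of alpha globin, rose 2.88-fold, also from below 0, and Hba-a1 was saturated. The part of these cell types in the other results was not tested.

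Growth factor families were read by ligands, receptors, antagonists and targets. Over all named genes 11.2% rose, and 6.77% of those that started at or above 0. In the Wnt list 4 of 7 tested genes rose and none fell, with 2 rises among the 3 genes that started at or above 0. Nkd2 and Nkd1, inhibitors that Wnt signalling induces, rose 3.27-fold and 2.39-fold. Nkd2 ran from -0.59 to 0.86 at 30 days and from 0.88 to 3.64 at 90 days. Sfrp2, a secreted Wnt modulator, rose 2.13-fold with no overlap, from between 0.19 and 1.19 to between 1.27 and 2.26. The ligand gene Wnt1 rose 3.81-fold from -2.54. In the Bmp list 6 of 10 rose and 1 fell, and of the 5 that started at or above 0, 2 rose and 1 fell. Bmp7 and Bmp4, ligands of the family, rose by 1.20 and 0.81, their receptor Bmpr1a by 0.92, the target Id4 by 1.33 and the antagonist Chrdl1 by 1.10. Fst, follistatin, which binds activins and Bmps, fell 3.04-fold. Chrdl1, Id4, Bmpr1a and Bmp4 started below 0. The Chrdl1 call was lost without replicate 5, without replicate 8 and under cyclic loess.

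In the TGF-beta list 2 of 6 fell and 1 rose, and of the 5 that started at or above 0, 2 fell and none rose. Inhba, the activin A subunit, ran from 0.47 to 1.95 at 30 days and from -1.37 to -0.42 at 90 days. The groups were well apart, with a fall of 4.21-fold (adjusted p = 4.7e-13). Tgfbr1, the signalling receptor of the family, fell 2.96-fold, and the ligand gene Tgfb3 rose 1.80-fold from -1.63, a call lost without replicates 5 and 8 and under cyclic loess. Of 9 IGF genes tested 5 rose and none fell, where 11.2% of all named genes rose. All 5 rises were among the 8 that started at or above 0, where 6.77% of named genes rose. These were Igf2, a growth factor of growing and regenerating tissue, at 2.05-fold, and the binding proteins Igfbp6, Igfbp2 and Igfbp3 at 2.10-fold, 2.07-fold and 1.94-fold, and Igfbp7, which differed by 0.87 ± 0.13. Igf1 differed by -0.48 and was not called. The same 5 rose without replicates 5 and 8. Of 8 EGF, FGF, HGF and PDGF family genes 3 rose, 2 of them among the 5 that started at or above 0. Fgfr2, the epithelial receptor for FGF7, ran from 0.51 to 1.13 and then from 1.30 to 2.52, a rise of 2.07-fold, and Erbb2 rose 1.92-fold.

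Of the Hedgehog list only Ihh could be tested, at 1.01 ± 0.56 and not called. When replicate 8 at 90 days was left out of both the fit and the filter, an alternative chosen after seeing the data, 4 Hedgehog genes could be tested, among 7463 named genes of which 823 rose and 720 (9.65%) fell. The target genes Gli1 and Ptch1 differed by 1.16 and 1.42 and the signal transducer Smo by 0.79, all called higher, and all 3 started low, at -2.92, -3.14 and -3.19, where the filter selects rises.

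**Figure D4:**
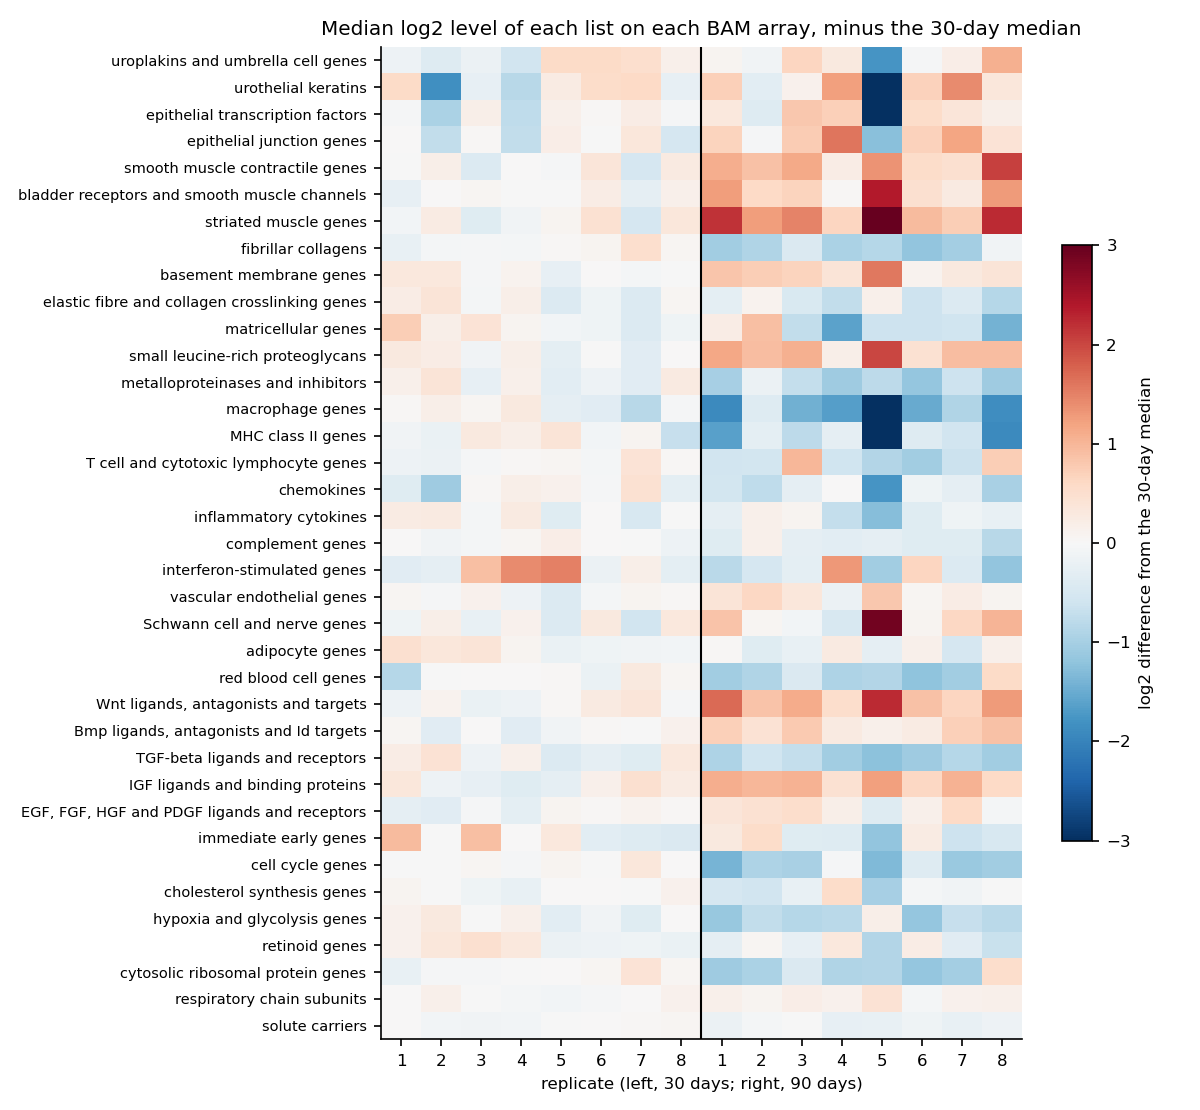
Median log2 level of each gene list on each of the 16 arrays, shown as the difference from the median of the 30-day arrays (colour, log2). Replicate 5 at 90 days has the lowest level of urothelial keratins (-0.04) and macrophage genes (0.37) and the highest of striated muscle genes (2.30).

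Transcripts of proliferation genes were lower at 90 days. Of 6 cell cycle genes tested 4 fell and none rose, where 9.82% of all named genes fell. Of the 5 that started at or above 0, 3 fell, where 12.9% of named genes fell. Beside Rrm2, Aurka, a mitotic kinase, ran from -0.94 to -0.40 and then from -2.64 to -1.40, a fall of 2.63-fold with no overlap. Mcm3 and Mcm4, subunits of the replicative helicase, fell 2.19-fold and 1.58-fold. Pcna, the sliding clamp, differed by -0.46 and Mcm7 by 0.18. Without the weak array in fit and filter, 12 could be tested and 8 fell, among them Mki67, the proliferation marker, by 2.30 on the log2 scale, and Cdk1, the mitotic kinase, by 1.83. Among immediate early genes 4 of 15 fell, Atf3 most at 3.27-fold, with Gadd45b, Junb and Klf6 between 1.58-fold and 1.77-fold. Without replicates 5 and 8 the call of Atf3 alone was left.

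Several genes of hypoxia and glycolysis fell. Of 19 tested 7 fell, 3 more falls were set aside and 2 rose, with a median difference of -0.70. Over all named genes 9.82% fell. Of the 17 that started at or above 0, 7 fell and 1 rose, where 12.9% of named genes fell and 6.77% rose. Beside Slc16a3, Slc2a1, the glucose transporter GLUT1, ran from 2.10 to 3.30 and then from 0.38 to 2.10, a fall of 2.94-fold. Tpi1, a glycolytic isomerase, was very even, from 3.43 to 4.26 and then from 2.52 to 3.30, a fall of 1.98-fold (adjusted p = 3.6e-13). Ndrg1 fell 1.85-fold, Bnip3, a mitophagy receptor, by 0.85 on the log2 scale, Pkm, pyruvate kinase of proliferating tissue, by 0.78, and Vegfa, the vascular growth factor, by 0.70. Hk1, a widely expressed hexokinase, and Pfkm, the muscle phosphofructokinase, rose by 0.74 and 0.61. The Pfkm call was lost under quantile normalization and cyclic loess. Without replicates 5 and 8 no rise was called, and 7 genes fell, with Ankrd37 in place of Ndrg1.

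The response element of the hypoxia-inducible factor has ACGTG at its core, so these letters were searched on either strand in the 250 bases before the start of each gene (RefSeq, GRCr8). They occur in 18.1% of 27457 genes with such a sequence. Of the 26 list genes 23 had a sequence and 10 of these held ACGTG. Among the 6 falling genes with a sequence it was found in 2, Slc2a1 and Bnip3, and the rising Hk1 and Pfkm held it too. A match is a description of the letters and not of a bound site. The sequences below, each 60 bases on the gene's strand with the match in capitals, show it in both genes that fell and in 1 that rose. They lie at chr5:138002444-138002503 on the plus strand, and at chr1:203155029-203155088 and chr20:30842263-30842322 on the minus strand.
Slc2a1: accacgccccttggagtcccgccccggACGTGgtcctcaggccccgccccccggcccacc
Bnip3: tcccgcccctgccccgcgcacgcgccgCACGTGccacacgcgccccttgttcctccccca
Hk1: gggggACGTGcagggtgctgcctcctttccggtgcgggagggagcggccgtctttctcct
The match in Bnip3 is the palindrome CACGTG, which reads the same on both strands.

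Other metabolic genes changed less. Of 16 cholesterol synthesis genes 2 fell, Insig1, the sterol-sensing brake of the pathway, by 2.69-fold and the sterol carrier Stard4 by 1.57-fold, while Hmgcs1, an enzyme of the pathway, differed by -0.07. Of 10 retinoid genes 2 fell, among them Rarres1 by 1.68-fold, a call lost without replicate 5, without replicate 8 and without both. Of 68 respiratory chain genes, all of which started at or above 0, 3 rose, 1 fell and 5 falls were set aside. Their median difference was 0.01. Ndufb10, a complex I subunit, and Cox6b2, a cytochrome oxidase subunit, rose 1.78-fold and 1.99-fold, and Atp5if1, the ATPase inhibitor, fell 1.67-fold. Of 76 cytosolic ribosomal protein genes 68 falls were set aside for saturation, so the family has no direction here. Of 79 solute carriers 13 rose and 13 fell, while among the 50 that started at or above 0, 3 rose and 11 fell. Of all named genes that started at or above 0, 6.77% rose and 12.9% fell. Beyond those named above, Slc13a3, a dicarboxylate carrier, fell 4.57-fold, a call lost without replicate 5 and without replicate 8, and Slc15a3, a lysosomal peptide carrier of leukocytes, 3.33-fold.

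Some genes were too dim at 90 days to be tested and yet well above background on all 8 arrays at 30 days. There were 2326 such probes and 0 of the reverse kind. The lowest level well above background averaged -7.01 at 30 days and -4.03 at 90 days, so the reverse kind could hardly occur. These counts therefore do not measure how many genes fell or rose. For the 2326 probes the fall has only a lower bound. It was taken against the lowest signal that was well above background on each 90-day array or the probe's own signal where that was higher. Gpr63, a G protein-coupled receptor, was at least 7.47-fold higher at 30 days, and Il1rl1, the interleukin 33 receptor of mast cells and type 2 lymphocytes, at least 6.85-fold. Trem3, a receptor of myeloid cells, was at least 4.00-fold higher, Tmem104 at least 3.92-fold and the transcription factor Zic2 at least 3.83-fold. No p was computed for these genes, and 40 named genes had a bound above 2-fold.

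Whether these changes differed in seeded grafts was tested as the change in BAM minus the change in BAM with ADSCs, over 8732 probes well above background on all 32 arrays. Both grafts were scanned on the same pair of scan days, so a shift that a scan day adds equally to both is subtracted. Each of the 4 groups kept a slide of its own, and the background was not alike. At 90 days it ran from 99.0 to 120 on seeded arrays and from 321 to 366 in BAM. At 30 days it ran from 48.0 to 52.0 and from 49.0 to 51.0. This gap in background is not subtracted, and its part in the calls was not tested. The difference was called for 1220 probes (14.0%). Of 5332 named genes 128 (2.40%) changed more positively in BAM and 286 (5.36%) more negatively. Saturation touched 137 of these genes, 133 of them on the negative side, and among the 5000 genes without a saturated array the counts were 124 and 153.

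Most genes that changed in BAM moved the same way in BAM with ADSCs. Of 1109 named genes called in BAM and tested in both, 1051 had the same sign in seeded grafts, 649 were also called there, and 115 differed between the grafts by the test. Both changes were read across the same pair of scan days and through the same probe filter. Unlike in the difference between the grafts, a shared scan shift is not subtracted from these counts. The part of scan day and filter in the shared sign was not tested. The medians of the lists were -0.80 for macrophage genes and 1.36 for smooth muscle genes in seeded grafts, against -1.39 and 0.86 in BAM. No gene of either list was called as different between the grafts. Not every list moved alike in the 2 grafts. The IGF genes had a median of -0.14 in seeded grafts against 0.87 in BAM, and 2 of the 9 were called as different. Striated muscle genes had 0.16 against 1.14, with 0 of 5 called as different.

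Krt80, one of the largest rises, was called as different. It ran from -2.77 to -1.87 at 30 days and from -0.77 to 0.02 at 90 days in BAM, and from -2.34 to -0.97 and then from -2.62 to -0.69 in BAM with ADSCs. Krt80 and Mcc started below -2 in BAM, where few probes passed the filter and no fall was called, so that a more positive change in BAM was favoured. The seeded days of Krt80 overlapped and the BAM days did not, and the changes differed by 1.70 ± 0.30 (adjusted p = 1.457e-05). Pkib, an inhibitor of protein kinase A, changed in opposite directions. It rose by 1.20 in BAM, from between -0.11 and 0.63 to between 1.10 and 1.62, and fell by 0.72 in seeded grafts, a difference of 1.92 ± 0.17. Mcc, a negative regulator of the cell cycle, rose by 1.72 in BAM and differed by -0.08 in BAM with ADSCs. Cbr3, a carbonyl reductase, was called with a difference of 1.63 ± 0.45, with changes of 0.58 in BAM, not called, and -1.04 in seeded grafts. The call was lost without replicate 8 at 90 days and under cyclic loess (adjusted p = 0.0107 and 0.0103).

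Eln showed the reverse pattern among the matrix genes. In BAM it ran from 0.44 to 1.57 and then from -0.10 to 1.40, and in BAM with ADSCs from 0.78 to 2.27 and then from -2.48 to 0.65. The change was -0.52 in BAM and -2.28 in seeded grafts, a difference of 1.76 ± 0.41 (adjusted p = 0.0005358). Among the growth factors Wnt1 rose more in BAM, by 1.20 ± 0.24, and so did Tuba3b, by 1.35, both from below -2.

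On the negative side, Gsta3, a glutathione transferase, rose in both grafts and less so in BAM, by 1.15 against 2.34. Nthl1, a DNA glycosylase, fell by 0.60 in BAM and rose by 0.74 in seeded grafts, though its fall in BAM was not called without replicate 8. Cxcl16 fell by 1.06 in BAM and differed by 0.06 in seeded grafts, and the difference of -1.13 ± 0.23 was called. Hltf, a chromatin remodeller, and Rcan1, an inhibitor of calcineurin, had differences of -1.13 and -1.18. Fabp5, a fatty acid carrier, Cst3, cystatin C, and the ribosomal Fau also had large negative differences, of -1.35, -1.35 and -1.31, but were saturated on 7 of 8 BAM arrays at 30 days, so that these have no settled size.

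**Figure D5:**
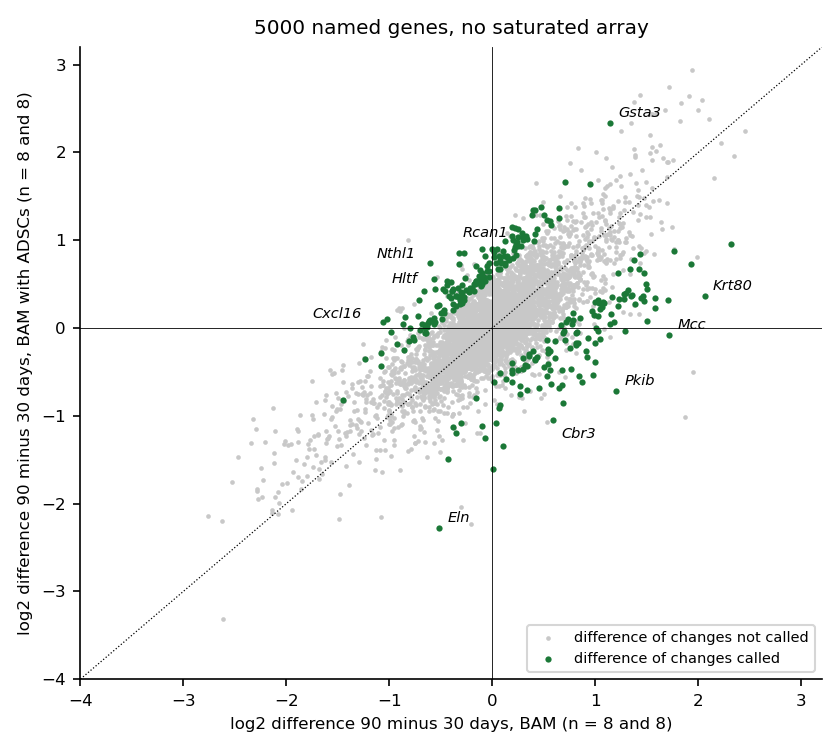
Change from 30 to 90 days (log2) in BAM with ADSCs against the change in BAM, for the 5000 named genes with no saturated array, 8 arrays per group and day. Green points are genes whose changes differed between the grafts, 124 to the right of the dotted line of equal change, with Pkib, Mcc and Krt80, and 153 to the left, with Gsta3 and Cxcl16.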

How the data were processed

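Gene expression was measured on 1-color (Cy3) Agilent rat arrays with 62976 spots, 1 reconstructed bladder wall per array. The authors deposited the Feature Extraction (12.0.1.1) output of each array, whose processed signal is a background-corrected intensity that is not on a log scale, and a series matrix, whose deposited intensity equals that signal for the 16 arrays of BAM at 30 and 90 days and was used as an alternative. Depth does not apply to arrays, and their number limits the precision.

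Control spots and spots marked as outliers were left out, the intensity was taken to log2, the 75th percentile of the non-control spots was subtracted, and spots of the same probe were averaged. A probe counted as well above background where at least 0.5 of its spots did. Of 30367 gene probes 18758 were named, for 15715 genes, through the RefSeq accession (assembly GRCr8), and a gene was given by its brightest tested probe. Group means of all 64 arrays were fitted with limma 3.58.1 (R 4.3.3), as in the authors' 2-way model, with the probe filter given in the report. Calls were two-sided and needed a change of more than 1.5-fold and a p, adjusted by Benjamini-Hochberg, below 0.01. A rise was counted only where no 30-day array, and a fall only where no 90-day array, was saturated. Tables and exact permutation tests used Python 3.11.15, numpy 2.4.6, pandas 2.3.3, scipy 1.17.1 and matplotlib 3.10.9. The fit was tested on simulated data.

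Named were the 10 genes with the largest rise and fall, the first 2 genes of each list and up to 4 called members, and 5 genes in each direction for the seeded comparison and 5 bounds, apart from a few that are counted in their lists but not reported here. Some further list members were named after their values were seen. The members and gene lists were chosen with earlier results of these data known. No block for slide could be fitted, since each slide held 1 group. The alternatives were quantile normalization, cyclic loess, a 75th percentile over tested probes, normexp background (offset 50), the series matrix, no filter, saturated probes left out, a fit of the 16 arrays, the replicate number as a block, a 2-fold threshold, 1 probe per gene, and each array left out. Spike-in scaling, replicates 5 and 8 left out and a minimum 30-day level were chosen after seeing the data.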

Additional observations from a re-analysis of the deposited data

Results flagged for a closer look

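Values far from the rest of their group were looked for in the named genes, over 306 sets of 8 arrays, with Dixon's ratio at its 95% critical value. It marked 41 values, where chance marks about 1 set in 20. Of the 41, 21 came from BAM at 90 days replicate 5, 9 from replicate 8 of that group and 7 from BAM at 30 days replicate 7. Genes that fall in the same tissue are not independent of each other, so a run of values from 1 array is 1 observation.

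In BAM at 90 days replicate 5, genes of epithelium were far below the other 7 arrays: Upk1a stood at 2.48 (next lowest 4.13), Upk1b at 2.66, Gata3 at -2.54, Cdh1 at -0.74, Epcam at -1.51 (next 1.22) and Cldn7 at -3.03. Genes of phagocytes and inflammation were low too, with Il1rn at -3.28 (next 1.98), Ncf1 at -0.97, Cd68 at 0.09 (next 2.87) and Cxcl16 at 0.77. Of other genes, Junb at 2.16, Fabp4 at 0.76, Fabp5 at 2.66 and Bmp2 at -1.89 were low. Genes of muscle and stroma were high, with Acta1 at 2.33 (next -0.19), Slc2a4 at 2.94, Col4a1 at 4.22 and Prelp at 2.94. Hk1 at 3.07 and Atp5f1b at 3.08 were high as well. So was the epithelial chemokine Ccl27 at 0.58, unlike the epithelial genes above. The keratin, macrophage and striated muscle lists of this array moved with these genes of epithelium, phagocytes and muscle. The part of tissue composition in this was not tested.

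In BAM at 90 days replicate 8, the weak array, the marked values were mostly of genes that other arrays saturated: Myh11 at 6.07, Col1a1 at 6.00, Col1a2 at 6.26, Bgn at 6.07, Hbb at 6.09, Hba-a1 at 6.03 and Rpl10 at 6.24. Cdh5 at -0.04 was high and C1r at 2.26 low. BAM at 30 days replicate 7 had the highest Col1a1 (6.01), Col1a2 (6.07), Bgn (5.88), Rpl10 (6.12), Rrm2 (3.15), Fosb (0.54) and Cox6b2 (2.36). The remaining values were Hbb (4.61) and Hba-a1 (4.67), lowest in BAM at 30 days replicate 1, Eln (1.40), highest in BAM at 90 days replicate 2, and Ltbp4 (-0.74), lowest in BAM at 30 days replicate 5.

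The change from 30 to 90 days differed between BAM and BAM with ADSCs, by the contrast of contrasts in limma, most for Pkib (1.92), Mcc (1.80), Eln (1.76), Krt80 (1.70) and Cbr3 (1.63) toward a more positive change in BAM, and for Fabp5 (-1.35), Cst3 (-1.35), Nthl1 (-1.35), Fau (-1.31) and Gsta3 (-1.19) toward a more negative one. Fabp5, Cst3 and Fau were saturated on most arrays of 1 or more groups.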

How the results depend on the processing

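Calls were counted anew under each alternative. Against 2433 calls, 1237 higher and 1196 lower, quantile normalization gave 1244 higher and 891 lower and cyclic loess 1119 and 853. Spike-in scaling gave 6837, 62 higher and 6775 lower. With no filter on dim probes 13578 were called, 10725 higher and 2853 lower. A 2-fold threshold left 822 (535 and 287), 1 probe per gene 1279 (599 and 680), and a 30-day level of at least 0 left 598 higher. Leaving out 1 array at a time gave 2340 to 2499 calls, 1167 to 1289 higher and 1146 to 1241 lower.

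For the difference between BAM and BAM with ADSCs, 1220 calls became 767 under cyclic loess, 1807 under spike-in scaling (186 more positive and 1621 more negative in BAM), 3054 with no filter (2057 more positive), 579 at 2-fold (212 and 367) and 384 with 1 probe per gene (111 and 273). Against 776 calls more negative in BAM, quantile normalization gave 376, cyclic loess 262 and leaving out saturated probes 428. With saturated probes left out, quantile normalization gave 757 calls (297 more negative) and cyclic loess 760 (257). A 30-day level of at least 0 left 233 that were more positive. Leaving out 1 array at a time gave 1164 to 1261 calls, 404 to 469 more positive and 752 to 814 more negative. The cause of these shifts was not tested.

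With the replicate number as a block on the 16 arrays 1593 probes were called, 693 lower, and on 32 arrays the seeded comparison had 1144. The numbers did not pair the arrays: correlations of same-numbered arrays ran from -0.303 to 0.455, and 1 of 8 arrays at 30 days correlated best with its own number.

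For the genes named by the rules above, 1102 values under alternatives kept direction and side of the threshold. There were 76 that lost the call and 3 that gained it, leaving out falls that were set aside for saturation. Among those Atp5f1a reversed, at 0.0931 under quantile normalization. Quantile normalization lost 4 calls (Gata3, Tjp1, Acta1 and Cox7c), cyclic loess 11 and normexp background 8, Mcm4 among them. These tallies leave out further list members. Of those, Fbln1 and Pfkm were lost under quantile normalization and cyclic loess, and Cldn5 under cyclic loess. Leaving out replicate 5, replicate 8 or both at 90 days lost 15, 11 and 25. The background at 90 days limits what can be said of dim genes, and saturation what can be said of the brightest.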
